A study of Mus musculus with 25 samples.

Results

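The genes Spry1, Spry2, Spry4, Spred1, Spred2, Dusp6, Etv1, Etv4 and Etv5 are classical transcriptional responses to FGF signalling through the ERK kinases. They were selected by gene symbol, and all 9 were found among the 37406 genes of the expression table. Their levels were followed by RNA-seq across 8 compartments of the developing mouse palate, which were isolated by laser capture microdissection at E14.5, around the time when the palatal shelves meet and fuse in the midline. All 25 libraries came from CD1 embryos that the labels give as wild type, with no treatment and no mutant allele in any group. The anterior and the posterior palate were each separated into medial and lateral and, as another division of the same shelves, into oral and nasal compartments, with 3 libraries per compartment and 4 for anterior nasal. The labels do not tie libraries to embryos, so the p-values below measure the spread between these libraries.

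FGF ligands bind receptor tyrosine kinases on the cell surface, and the activated receptor passes the signal through adaptor proteins, RAS and RAF to the kinases MEK and ERK. Among the first genes that ERK activity induces are its own inhibitors. Sprouty proteins (Spry1, Spry2, Spry4) and the related Spred proteins (Spred1, Spred2) act upstream, between the receptor and RAF, while Dusp6 is a cytoplasmic phosphatase that removes the activating phosphates from ERK itself. Etv1, Etv4 and Etv5 form the PEA3 subfamily of ETS transcription factors, which carry part of the response into the nucleus. In the palate, FGF10 from the mesenchyme is known to signal to receptors in the overlying epithelium, and loss of that signal causes cleft palate. Other growth factors that use ERK can induce the same genes, so their transcripts do not name the ligand.

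Values were RPKM, read counts scaled to transcript length and to the mapped reads of the library, so levels below are compared between genes per length of transcript. The low values rose in steps, from which a depth of 1640000 to 6560000 reads per library was inferred. Only 98 of 756 usable genes gave this total and 78 gave 50 times it, as steps of 1 base of a 50 base read would, so the depth is a rough estimate, and it is well below the number of sequenced reads that the study's methods give. At it, 3 reads on a transcript of 2000 bases are worth 0.229 to 0.915 RPKM, and such floors cover counting error only. The libraries were spread over 8 sequencing runs, and lateral and medial libraries of one end of the palate shared no run, so that run and compartment cannot be told apart in those comparisons. Posterior medial 2 and anterior oral 1 stood apart from the other libraries, with a median correlation across genes of 0.658 and 0.719 against the other 24, and tests and correlations that they changed are also given without them. The headings of posterior medial 1 and posterior lateral 1 contain the name ERK2_WT and those of 4 oral and nasal libraries Tgfbr2_WT. Markers of palate mesenchyme were high in every library (summed over 10 genes, 845 to 1620 RPKM), and all libraries also held markers of epithelium (23.5 to 153 RPKM over 11 genes) and of endothelium (55.9 to 196 RPKM over 6 genes).

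All the response genes except Etv4 were expressed at moderate levels. Spred1 was the highest and the most even, with 21.2 ± 3.46 RPKM (SD, n = 25), a lowest library of 14.9 and a highest of 27.3 RPKM. Dusp6 (13.6 ± 5.58), Spred2 (12.5 ± 4.91), Spry2 (12.4 ± 5.73) and Spry1 (11.2 ± 3.13 RPKM) followed, and these neighbours in the order did not differ beyond their spread. Etv5 was the most abundant PEA3 factor at 8.57 ± 4.15 RPKM, ahead of Etv1 at 5.45 ± 3.74 RPKM, with Spry4 at 5.97 ± 3.91 RPKM between them. Etv4 was near the limit of detection at 0.896 ± 0.746 RPKM, reached 5 RPKM in none of the 25 libraries and was listed at 0 in 2 of them, posterior medial 2 and anterior oral 1.

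The 8 compartments differed by modest factors. The ratio of the highest to the lowest compartment mean was 1.44 for Spred1, 1.63 for Spry1, 1.72 for Spred2, 2.77 for Spry2, 3.11 for Dusp6, 3.32 for Etv5, 3.75 for Spry4, 4.73 for Etv1 and 6.09 for Etv4. The posterior nasal compartment had the lowest mean of 6 of the 9 genes (Spry2, Spry4, Spred1, Dusp6, Etv1 and Etv4), and anterior lateral had the highest mean of 3 (Dusp6, Etv4 and Etv5). When the compartments were ordered by mean for each gene, 60 of the 63 neighbouring compartments had overlapping ranges. The 3 steps without overlap were in Etv1, between posterior oral and anterior medial and between anterior medial and posterior nasal, and in Etv5, between anterior nasal and posterior lateral. No share over all genes was worked out for these orders and overlaps, so the counts only describe the members.

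**Figure D1:**
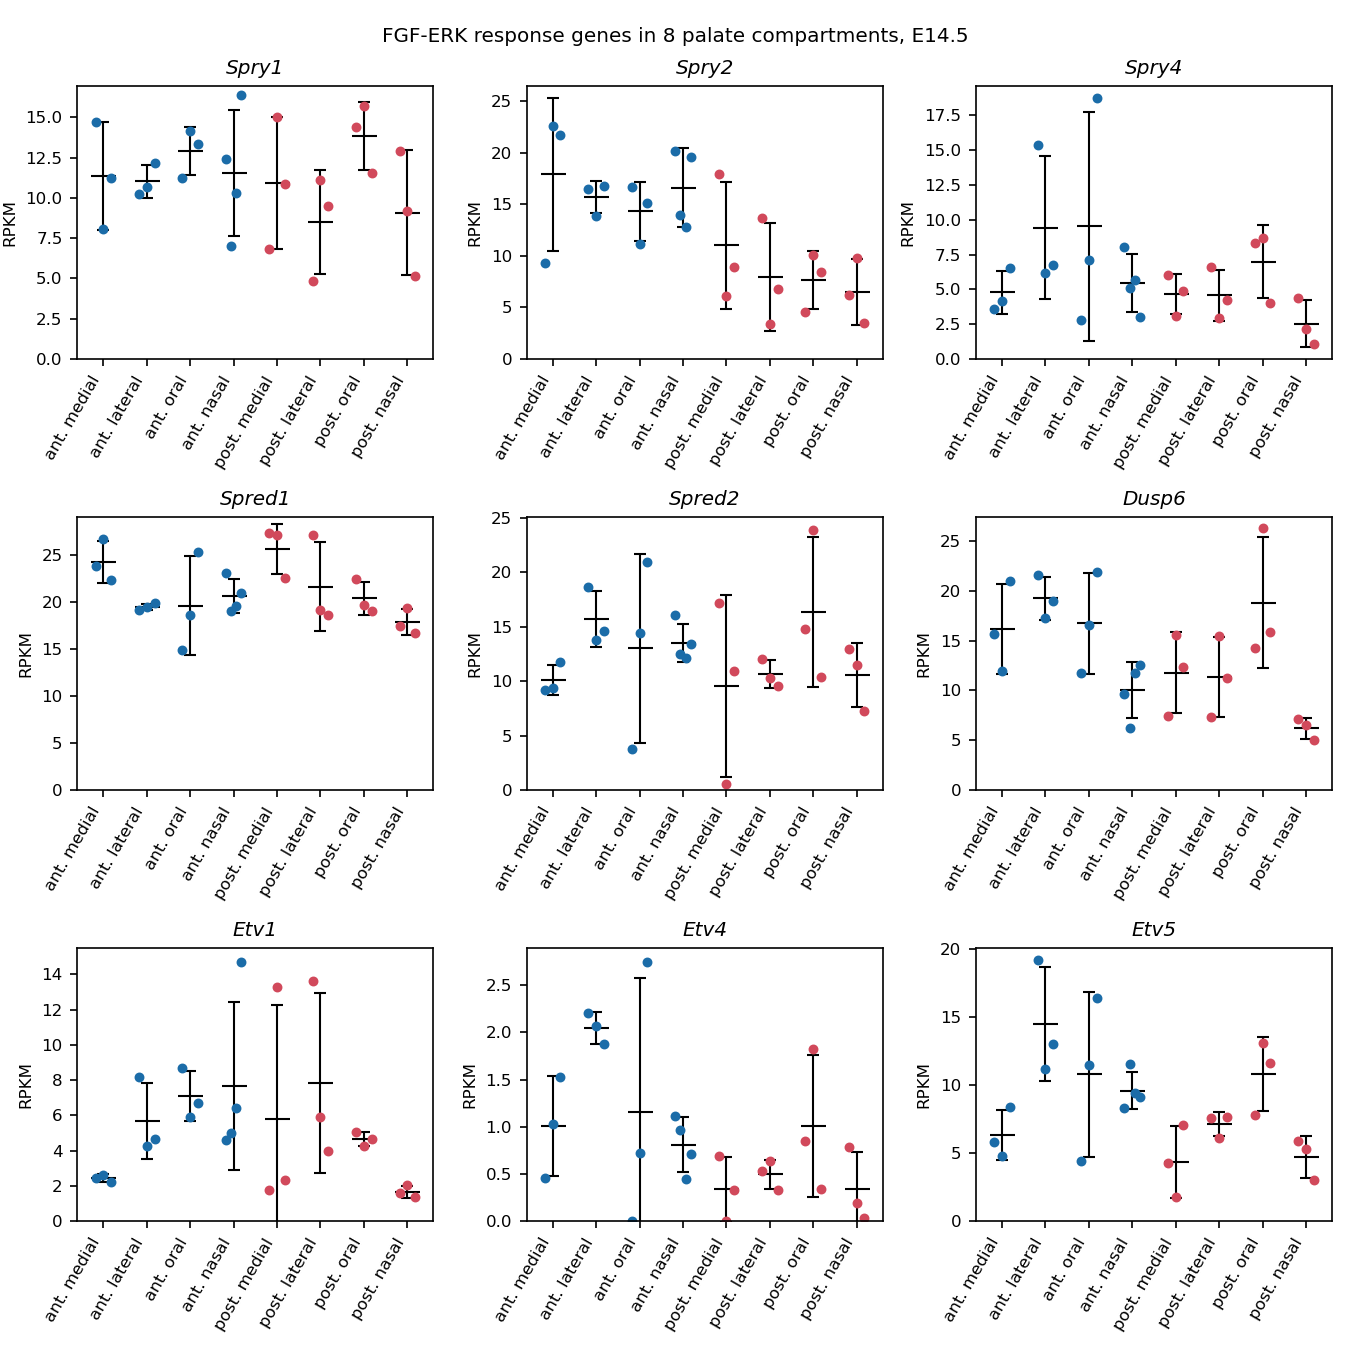
RPKM of the 9 response genes in each compartment, with 1 point per library (blue anterior, red posterior), a bar at the mean and whiskers of 1 SD that are clipped at 0. Spry2 was lower in posterior than in anterior compartments, Dusp6 was lowest in posterior nasal, and Etv4 stayed under 3 RPKM in every library.

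Promoter sequence was at hand for 7 of the 9 genes (RefSeq, GRCm38.p6). The 250 bases before the start site are shown for Dusp6 and Spry2, the members called in comparisons below. They are also shown for Etv5, the most abundant PEA3 factor. The motifs searched on both strands were the PEA3-type ETS core AGGAAG, the stronger ETS form CCGGAAG, the cAMP response element TGACGTCA and the AP-1 site TGAGTCA. Capitals mark matches.
Dusp6 (chr10:99262981-99263230, plus strand): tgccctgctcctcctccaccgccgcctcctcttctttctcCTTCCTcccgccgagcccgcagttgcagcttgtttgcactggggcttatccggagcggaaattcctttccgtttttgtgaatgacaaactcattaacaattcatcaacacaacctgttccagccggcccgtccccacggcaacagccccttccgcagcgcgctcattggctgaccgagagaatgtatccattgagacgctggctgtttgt
Spry2 (chr14:105896820-105897069, minus strand): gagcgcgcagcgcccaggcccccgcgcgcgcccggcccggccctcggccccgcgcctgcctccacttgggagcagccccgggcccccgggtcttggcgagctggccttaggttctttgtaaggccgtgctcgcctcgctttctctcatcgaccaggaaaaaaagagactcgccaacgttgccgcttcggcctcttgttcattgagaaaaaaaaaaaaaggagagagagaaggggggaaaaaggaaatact
Etv5, first of its listed starts (chr16:22439571-22439820, minus strand): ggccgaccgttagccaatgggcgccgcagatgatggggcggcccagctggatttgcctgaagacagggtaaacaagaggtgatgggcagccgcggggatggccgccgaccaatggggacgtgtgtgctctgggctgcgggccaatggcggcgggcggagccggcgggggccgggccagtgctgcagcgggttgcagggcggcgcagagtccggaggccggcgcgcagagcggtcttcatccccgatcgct
The Dusp6 window held 1 match, the ETS core on the strand opposite to the gene, at -210 counted from the start. AGGAAG occurred in 29.5% of 32817 RefSeq promoter windows of this length, against 6.90% for CCGGAAG, 1.55% for TGACGTCA and 4.46% for TGAGTCA. The only other matches in the 9 member windows were 2 ETS cores in Spred2 (at -93 and -32) and 1 in Etv1 (at -8), and no match in a window means only that these letters are not in it. Spry2 and Etv5 had GC-rich windows, 62.4% and 71.2% GC with 23 and 27 CpG dinucleotides, where the median window had 52.4% GC and 6 CpG.

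Spry2, which inhibits signalling between the receptor and RAF, was the only response gene called along the anterior-posterior axis, of 6 that could be tested. In the anterior palate it had 9.32, 22.6 and 21.8 RPKM in the medial, 16.5, 13.9 and 16.7 in the lateral, 16.7, 11.1 and 15.1 in the oral and 20.2, 13.9, 12.8 and 19.6 in the nasal libraries. In the posterior palate the values were 17.97, 6.12 and 8.94 RPKM in the medial, 13.7, 3.37 and 6.76 in the lateral, 4.52, 10.05 and 8.43 in the oral and 6.15, 9.82 and 3.44 in the nasal libraries. The mean was lower in the posterior in all 4 compartments, and in lateral, oral and nasal every posterior library lay below every anterior one. The lateral gap was narrow, from 13.7 RPKM in posterior lateral 1 to 13.9 RPKM in anterior lateral 2. No share of all genes that separate in this way was worked out. Only the medial ranges overlapped, through anterior medial 1 at 9.32 and posterior medial 1 at 17.97 RPKM. Over all libraries the anterior values ran from 9.32 through a median of 16.5 to 22.6 RPKM (n = 13) and the posterior ones from 3.37 through 7.59 to 17.97 RPKM (n = 12). Spry2 fell by 1.08 on the log2 scale from anterior to posterior (SE 0.22, 95% interval -1.54 to -0.63, limma, Benjamini-Hochberg adjusted p = 0.00358), a 2.12-fold difference. In bulk tissue of this kind, fewer cells of a type and less RNA per cell cannot be told apart. Among the marker lists tested along this axis, 2 of 10 mesenchyme genes (1 higher and 1 lower in posterior) and 1 of 2 cartilage genes (higher in posterior) were called. Their part in the result was not tested.

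Spry2 was also lower in posterior within sequencing runs, in small sets of libraries. Each compartment had 1 run that contained both anterior and posterior libraries. In run0366 the posterior medial libraries had 6.12 and 8.94 RPKM against 9.32, 22.6 and 21.8 in anterior medial. In run0391 the posterior lateral libraries had 3.37 and 6.76 against 16.7 RPKM in anterior lateral, and in run0175 the values were 4.52 against 15.1 RPKM in oral and 6.15 against 19.6 RPKM in nasal. Posterior was lower in all 4 within-run sets, by 1.16 to 1.79 on the log2 scale. The oral and nasal sets were 1 library against 1, and the run0175 libraries are the 4 whose headings name Tgfbr2_WT. By mean log2 value, Spred2, Dusp6 and Etv5 were also lower in posterior in 4 of 4 sets. The share over all genes was not worked out. The posterior libraries whose headings name ERK2_WT had the highest Spry2 of their compartments, 17.97 RPKM in medial and 13.7 RPKM in lateral. They also had the highest Spry4, Spred1 and Spred2 and the lowest Spry1 and Dusp6 of their compartments. Etv1, Etv4 and Etv5 had no extreme in common there. The labels do not say what that name stands for. Each of these libraries was the only one of its run, so heading and run cannot be told apart, and their effect was not tested. Spry2 was called in all 25 refits that left out 1 library (log2 difference -1.20 to -0.98) and without posterior medial 2 and anterior oral 1 together (-1.05, adjusted p = 0.00688). With sequencing run as a covariate the log2 difference was -1.58 (adjusted p = 0.00740).

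**Figure D2:**
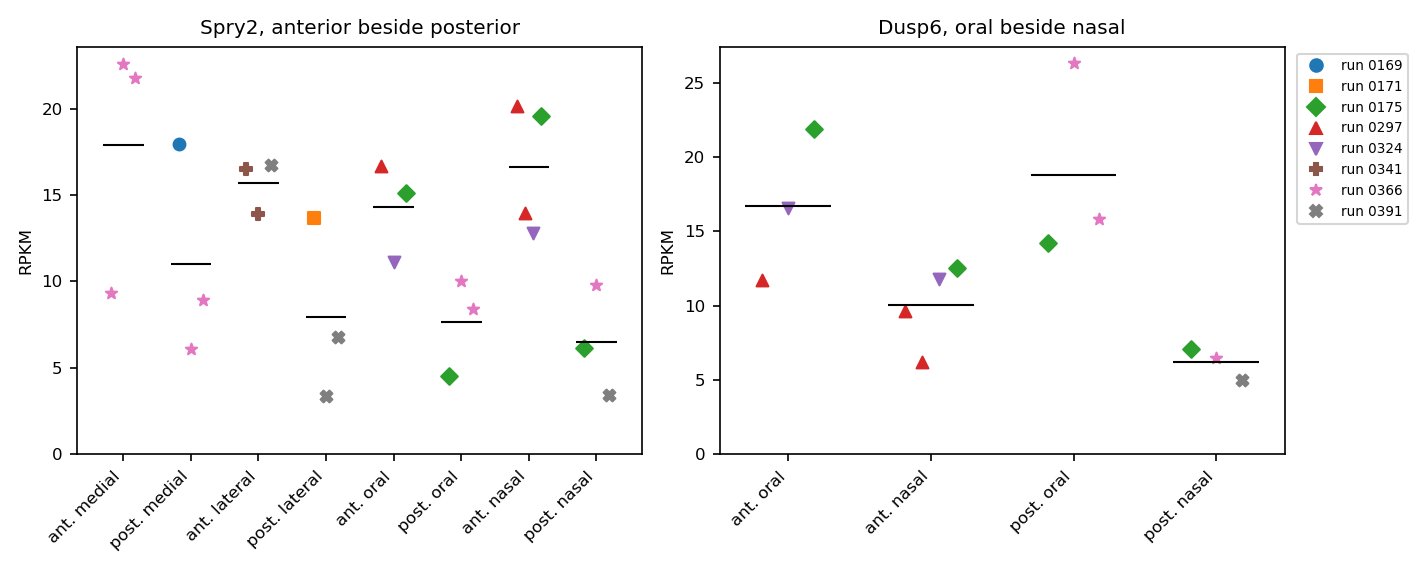
RPKM of Spry2 in anterior and posterior compartments (left) and of Dusp6 in oral and nasal compartments (right), with 1 symbol per library, colour and shape giving the sequencing run and a bar at the mean. Within a run, every posterior Spry2 value of a compartment lay below the anterior ones, and oral Dusp6 exceeded nasal Dusp6.

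Spry2 was the only member called of 6 tested along this axis, where 3.32% of 8608 genes were called, 1.66% as lower in posterior. The test required 10 RPKM in 6 libraries, which Spry4, Etv1 and Etv4 did not reach. Fitted without that minimum, these 3 were also below 0 and not called. The log2 difference was -1.07 for Etv4 (SE 0.48, unadjusted P = 0.0338, adjusted p = 0.343), -0.57 for Spry4 (SE 0.32, adjusted p = 0.491) and -0.44 for Etv1 (SE 0.36, adjusted p = 0.654). Of the 6 members tested with the minimum, 5 were below 0, where 55.7% of all genes were above 0. The median log2 difference of the 6 was -0.38 against 0.03 over all genes tested. Etv5 averaged 10.2 ± 4.31 RPKM (SD, n = 13) in anterior and 6.76 ± 3.24 RPKM (SD, n = 12) in posterior libraries, a log2 difference of -0.64 (SE 0.27, adjusted p = 0.240) that did not pass the test. At an unadjusted P under 0.05, 15.3% of genes passed, and Spry2 and Etv5 did among the members. Spry1, whose protein acts at the same step as Spry2, had 11.7 ± 2.60 and 10.6 ± 3.64 RPKM, a log2 difference of -0.20 (95% interval -0.57 to 0.17). Spred1 had the narrowest interval, 0.02 (-0.19 to 0.23) on the log2 scale, and was at -0.03 with median centring.

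Dusp6, the ERK phosphatase, was higher on the oral than on the nasal side of the posterior palate. The posterior oral libraries had 14.2, 26.3 and 15.8 RPKM and the posterior nasal libraries 7.09, 6.49 and 4.99 RPKM, so every oral value was above every nasal one. The log2 difference of 1.55 (SE 0.29, 95% interval 0.89 to 2.20), a 2.92-fold change, passed the test (adjusted p = 0.0468). Dusp6 was the only member called of 6 tested in this comparison, where 1.25% of 10586 genes were called, 0.586% as higher in oral. The adjusted p lay close to its threshold, and it was 0.0743 to 0.261 when any 1 of the 6 libraries was left out, each of which ended the call. With sequencing run as a covariate over all 25 libraries the log2 difference was 1.36 (adjusted p = 0.156). Within run0175 the values were 14.2 in oral and 7.09 in nasal, and within run0366 the oral mean was 21.1 against 6.49 RPKM in nasal.

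All 6 members tested in the posterior palate had oral minus nasal differences above 0, with a median of 0.64 on the log2 scale, and 47.8% of all genes tested were above 0. Spry2 went the other way within runs, at -0.44 in run0175 and -0.09 in run0366, and was at -0.24 with run as a covariate. Over both ends of the palate Spry2 was higher in oral in 0 of 5 within-run sets, Spred1 in 2, and Spry1, Spred2 and Etv5 in 4 of 5. Etv5 had 7.80, 13.1 and 11.6 RPKM in posterior oral and 5.89, 5.28 and 2.98 RPKM in posterior nasal, and the groups did not overlap. Its log2 difference was 1.21 (SE 0.32, unadjusted P = 0.00502, adjusted p = 0.172), so it passed an unadjusted P under 0.05 with a fold change over 2, as Dusp6 did and as 3.50% of the genes did (8% by P alone), but not the adjusted threshold. Etv1 was too low for the test yet separated the groups, with 5.05, 4.28 and 4.67 RPKM in oral and 1.56, 2.03 and 1.38 RPKM in nasal. Altogether 3 of the 9 members were higher in every oral than in every nasal library, and 6.21% of genes tested were. Etv1 was under the minimum that this share requires, so only Dusp6 and Etv5, of the 6 members tested, compare directly with it. Fitted without the expression minimum, Etv1 had a log2 difference of 1.45 (SE 0.25, adjusted p = 0.131). Spry1 (log2 difference 0.69), Spred2 (0.59), Spry2 (0.29) and Spred1 (0.19) had adjusted p-values of 0.756 to 0.999.

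In the anterior palate the oral and nasal compartments were not separated by any response gene. limma called 0 of 8 members tested, with 0 at an unadjusted P under 0.05, where it called 0% of 10684 genes after adjustment and 2.98% before, and all 9 members overlapped between the groups, where 3.67% of genes did not. Dusp6 had 11.8, 16.6 and 21.9 RPKM in anterior oral and 9.61, 6.199, 11.8 and 12.5 RPKM in anterior nasal, and the ranges overlapped. The difference was 0.74 on the log2 scale (SE 0.33, 95% interval -0.03 to 1.503, adjusted p = 1.00). Without anterior oral 1 it was 0.97 (unadjusted P = 0.0189, adjusted p = 0.537), and Spry4 then had 1.15 (unadjusted P = 0.0443, adjusted p = 0.581) and was the 1 member past a fold change of 2. Within each of the 3 runs that held both compartments, oral Dusp6 was above the nasal mean, by 0.49 to 0.80 on the log2 scale, and over both ends of the palate Dusp6 was higher in oral in 5 of 5 within-run sets. The test of whether the oral-nasal difference itself differed between anterior and posterior gave -0.81 for Dusp6 (SE 0.46, adjusted p = 1.00). Of the 8 members in that test, limma called 0, with 1 at an unadjusted P under 0.05, and 0.0350% of 11442 genes were called, 3.38% before adjustment. That 1 was Etv1, at -1.41 (SE 0.51, unadjusted P = 0.0167, adjusted p = 1.00): it had 8.69, 5.92 and 6.72 RPKM in anterior oral and 4.57, 4.99, 6.40 and 14.7 RPKM in anterior nasal, while its posterior values are those given above. All 8 estimates were below 0, that is, toward a larger oral excess in the posterior, where 47.4% of genes were above 0, and with run as a covariate Spry2 was the exception at 0.07.

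**Figure D3:**
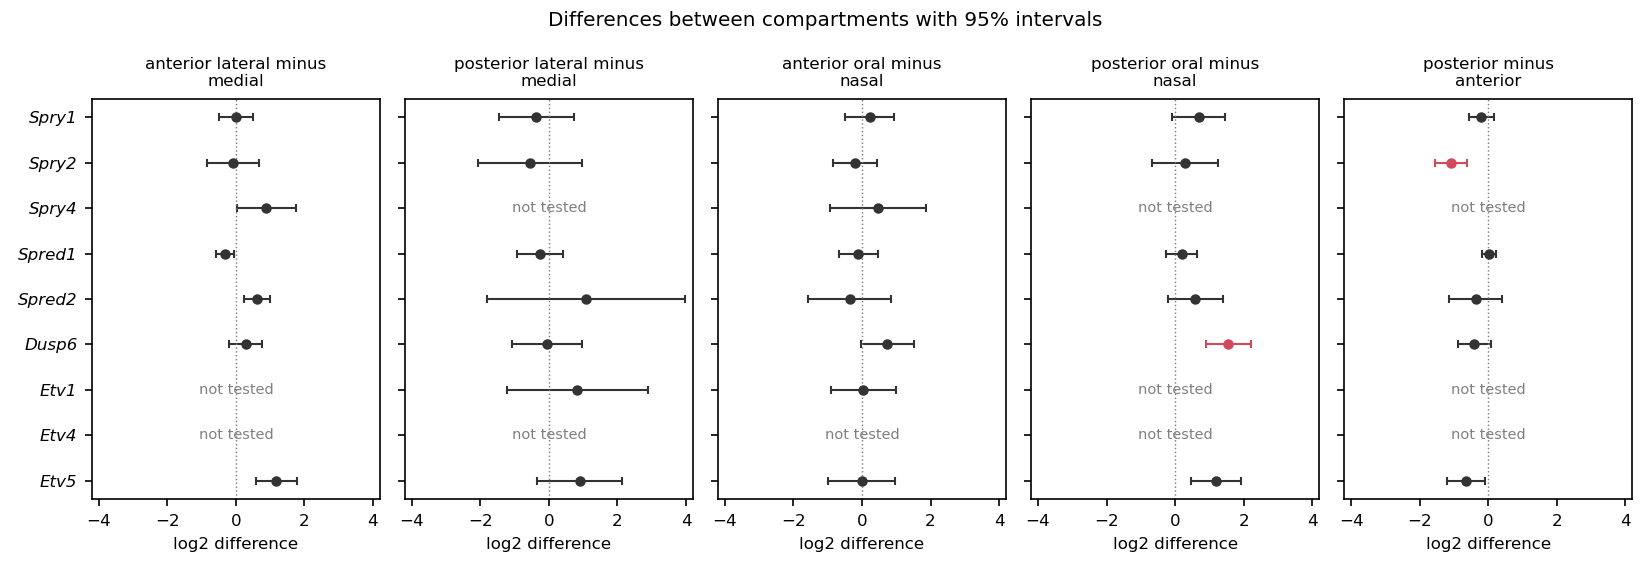
Log2 differences of log2(RPKM + 0.1) in 5 comparisons, with 95% intervals from the moderated limma fit. Red marks an adjusted p under 0.05, which Dusp6 reached for posterior oral minus nasal and Spry2 for posterior minus anterior. Genes under the expression minimum of a comparison are marked as not tested.

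Endothelial and osteoblast markers were also unequal along the oral-nasal axis. The 6 endothelial markers were all detected in every library, and their summed level was 126 to 196 RPKM in posterior oral against 55.9 to 86.3 RPKM in posterior nasal, and 125 to 192 against 69.2 to 119 RPKM in the anterior. All 6 were higher in posterior oral, 6 at an unadjusted P under 0.05 (8% of genes) and 4 also with a fold change over 2 (3.50% of genes). Of them 1, Emcn, was called. The 5 osteoblast markers found summed to 376 to 546 RPKM in posterior nasal against 82.5 to 105 RPKM in posterior oral, and the 4 of them that were tested were all called lower in oral, while Bglap was listed at 0 in 14 of the 25 libraries. Of the cartilage markers, 0 of 4 tested were above 0 and 1, Acan, was called lower in oral (summed level 65.5 to 109 RPKM in oral and 91.7 to 143 RPKM in nasal). Of the epithelial markers 1 of 4 tested was above 0 and 1, Krt18, was called lower in oral (25.9 to 47.3 against 38.6 to 72.3 RPKM). No mesenchyme, muscle, red cell, myeloid or nerve marker was called by limma in this comparison. By an unadjusted P under 0.05 with a fold change over 2, however, 3 of 10 mesenchyme markers were higher in oral and 0 lower. Of these 10 markers, 4 were above 0. The part of these cell types in the Dusp6 and Etv5 differences was not tested.

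Between the lateral and medial compartments of the anterior palate, Etv5 and Spred2 had the lowest p-values among the members tested. Etv5 had 19.2, 11.2 and 13.03 RPKM in anterior lateral and 5.79, 4.80 and 8.37 RPKM in anterior medial, with every lateral value above every medial one. Its log2 difference was 1.18 (SE 0.26, 95% interval 0.58 to 1.79, unadjusted P = 0.00223, adjusted p = 0.0682). Spred2, a membrane-associated inhibitor of RAF activation, had 18.6, 13.8 and 14.6 RPKM in lateral and 9.21, 9.38 and 11.7 RPKM in medial, a log2 difference of 0.63 (SE 0.16, unadjusted P = 0.00537, adjusted p = 0.106). limma thus called 0 of 7 members tested, where 2.51% of 10427 genes were called, and 4 of the 7 had an unadjusted P under 0.05 (15% of all genes). By an unadjusted P under 0.05 with a fold change over 2, 1 member passed, Etv5, and 2.37% of genes did.

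The other members of this comparison with an unadjusted P under 0.05 were Spry4, higher at 0.89 (SE 0.37, adjusted p = 0.318), and Spred1, lower at -0.31 (SE 0.12, adjusted p = 0.248). Spry4 had 15.4, 6.15 and 6.77 RPKM in lateral and 3.60, 4.18 and 6.56 RPKM in medial, and these ranges overlapped. The PEA3 factors that were too low for the test pointed the same way as Etv5. Etv1 had 8.17, 4.26 and 4.63 RPKM in lateral and 2.46, 2.63 and 2.21 RPKM in medial, and Etv4 2.21, 2.06 and 1.87 RPKM against 0.461, 1.03 and 1.53 RPKM, again without overlap. Thus 4 of the 9 genes (Spred2, Etv1, Etv4 and Etv5) were higher in every lateral than in every medial library, and 1 (Spred1) was lower in every lateral library. Of the genes tested, 9.72% were higher and 11.6% lower in this way. Etv1 and Etv4 were under the minimum that these shares require, so only Spred2, Etv5 and Spred1 compare directly with them. Spry1 and Spry2 had log2 differences of 0.00 (95% interval -0.51 to 0.50) and -0.09 (-0.85 to 0.67). Etv5 crossed the threshold without anterior medial 3 (log2 difference 1.40, adjusted p = 0.0490), and with any other of the 6 libraries left out its adjusted p was 0.106 to 0.195. Endothelial markers summed to 143 to 162 RPKM in anterior lateral and 106 to 120 RPKM in anterior medial (all 6 above 0 and at an unadjusted P under 0.05, 0 called by limma), cartilage markers to 20.7 to 21.6 and 67.6 to 109 RPKM (2 of 3 tested called lower). Among the other lists, Krt8 was called higher and Krt14 lower in lateral (epithelium, 6 tested), Runx2 lower (osteoblast, 2 tested), Sox10 higher and Prph lower (nerve and Schwann cells, 3 tested) and Osr2 higher (mesenchyme, 10 tested), and the part of these cell types in the result was not tested.

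In the posterior palate the lateral and medial compartments overlapped for all 9 genes. limma called 0 of 7 members tested, with 0 at an unadjusted P under 0.05, where it called 0% of 10324 genes after adjustment and 1.54% before, and 6.62% of genes did not overlap. Posterior medial 2, the library least like the others, held an extreme of several medial ranges. Spred2 had 17.1, 0.569 and 10.9 RPKM in posterior medial, against 12.1, 10.2 and 9.56 in posterior lateral, and Etv1 1.75, 13.3 and 2.30 RPKM against 13.6, 5.89 and 3.97 RPKM. Without that library the Spred2 log2 difference went from 1.09 to -0.37 (adjusted p = 1.00), the remaining medial Etv1 values lay below all lateral ones, and limma still called 0 members. Etv5 had 4.26, 1.76 and 7.06 RPKM in medial and 7.57, 6.11 and 7.67 RPKM in lateral, a log2 difference of 0.89 (SE 0.52, 95% interval -0.36 to 2.14, adjusted p = 0.957). The test of whether the lateral-medial difference differed between anterior and posterior called 0 of 8 members, with 0 at an unadjusted P under 0.05 and 0.00902% of 11089 genes called (3.36% before adjustment), and for Etv5 it gave 0.29 (95% interval -1.09 to 1.67).

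Across all 8 compartments at once, Dusp6 was the only member whose levels differed by limma's moderated F test (F = 5.17, adjusted p = 0.0443), of 8 tested and with 4.42% of 11913 genes called. Compartment means ran from 6.19 ± 1.08 RPKM (SD, n = 3) in posterior nasal to 19.3 ± 2.17 RPKM (SD, n = 3) in anterior lateral. The anterior medial libraries had 15.6, 11.96 and 20.9 RPKM, the anterior lateral libraries 21.6, 17.2 and 19.0, the posterior medial libraries 7.44, 15.5 and 12.4 and the posterior lateral libraries 7.35, 15.5 and 11.2 RPKM. The lowest values of posterior medial and posterior lateral were those of the libraries whose headings name ERK2_WT. The effect of heading or run was not tested. At an unadjusted P under 0.05, 4 members passed (12% of genes did), the others being Etv5 (adjusted p = 0.108), Etv1 (0.160) and Spry2 (0.211). The Dusp6 call was lost, with an adjusted p of 0.0532 to 0.177, on leaving out any 1 of 15 libraries (anterior medial 1 and 3, anterior lateral 1, 2 and 3, anterior oral 2 and 3, anterior nasal 1 and 3, posterior lateral 3, posterior oral 2 and 3, and posterior nasal 1, 2 and 3). Without posterior medial 2 and anterior oral 1 together, 3 members were called: Dusp6 (adjusted p = 0.0137), Etv1 (0.00664) and Etv5 (0.00740). Etv1 was also called without posterior medial 2 alone (0.00429), and Etv5 without anterior oral 1 (0.0207) or posterior medial 3 (0.0333).

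Upstream of the response genes, 2 of 6 FGF ligands and 2 of 4 receptors tested were called along the posterior oral-nasal axis. Of all 10586 genes tested there, 1.25% were called. Fgf10 met the expression minimum only through its oral libraries and Fgfr3 only through its nasal ones. These genes thus entered the test because 1 group was high. Fitted without the minimum, the calls of all 4 ligands and receptors were lost. Fgf10, the mesenchymal ligand, had 7.40, 7.77 and 10.03 RPKM in posterior oral and 1.98, 2.66 and 1.40 RPKM in posterior nasal (log2 difference 2.04, SE 0.27, adjusted p = 0.0155). Fgf18, a ligand with known roles in bone and cartilage, had 15.0, 18.6 and 17.9 RPKM against 2.14, 5.77 and 2.57 RPKM (2.39, SE 0.36, adjusted p = 0.0222). Fgfr2 and Fgfr3 ran the other way. Fgfr2 had 30.9, 20.4 and 23.7 RPKM in oral and 64.4, 57.8 and 68.5 RPKM in nasal (-1.36, SE 0.23, adjusted p = 0.0345). Fgfr3 had 3.31, 4.12 and 3.06 against 13.8, 10.2 and 13.7 RPKM (-1.82, SE 0.23, adjusted p = 0.0142). The ligands and receptors did not divide cleanly by side, as 4 of the 6 ligands and 1 of the 4 receptors tested were above 0. Fgfr1 averaged 66.7 RPKM in posterior oral and 59.6 RPKM in posterior nasal. All 4 calls were lost with run as a covariate within the comparison (adjusted p 0.107 to 0.210), where the log2 differences were 1.76 for Fgf10, 2.12 for Fgf18, -1.25 for Fgfr2 and -1.73 for Fgfr3. They were also lost on leaving out 1 library: Fgf10 without posterior nasal 1 or 3 (adjusted p 0.0649 to 0.0949), Fgf18 without any but posterior nasal 2 (0.0633 to 0.135), Fgfr2 without any but posterior oral 1 (0.0882 to 0.210) and Fgfr3 without posterior oral 3 (0.0624), while Fgf10 fell under the minimum without any posterior oral library and Fgfr3 without any posterior nasal one. The posterior nasal libraries were also those with the highest osteoblast markers.

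**Figure D4:**
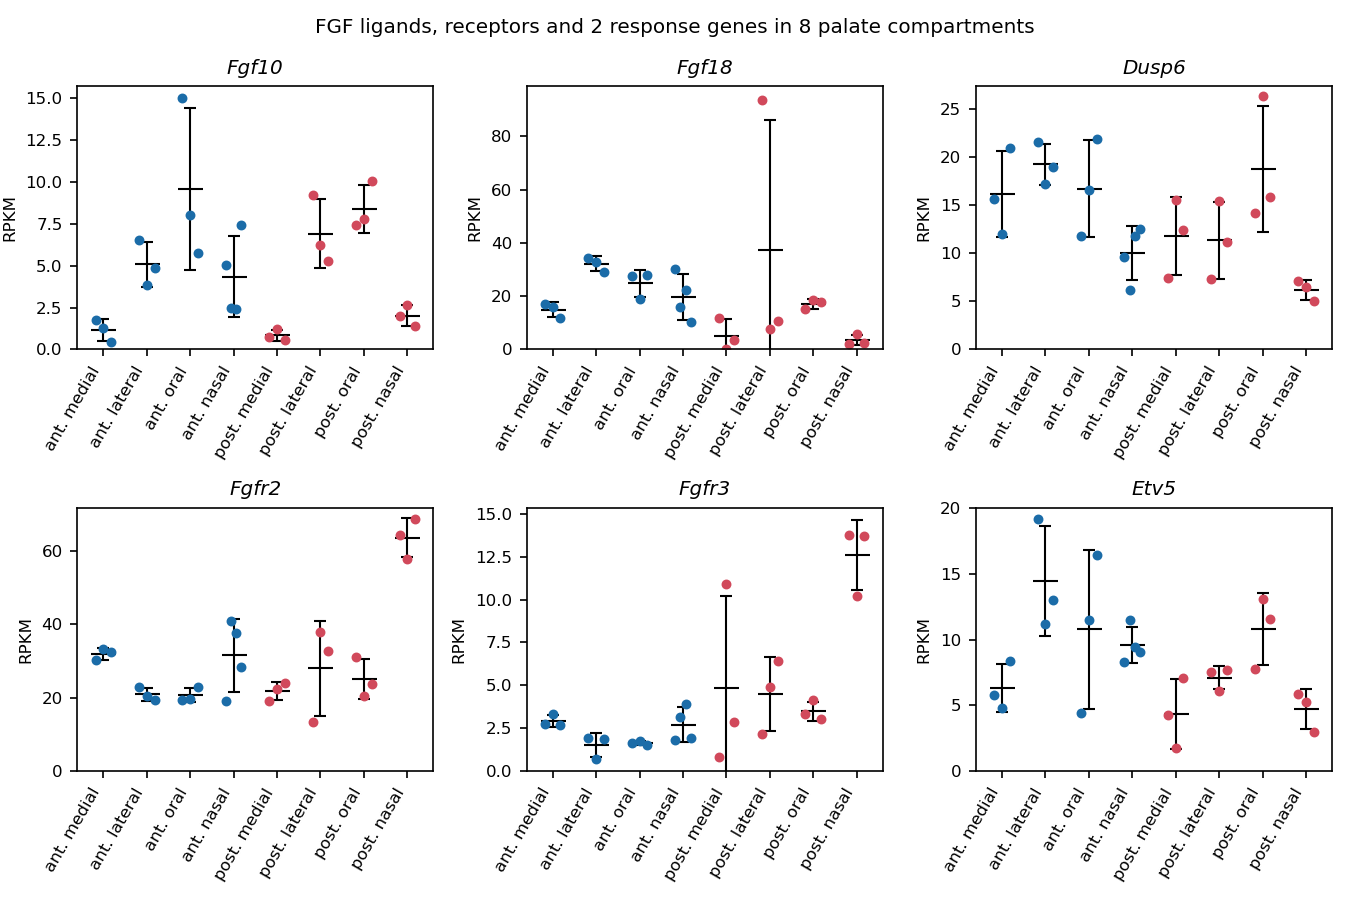
RPKM of the ligands Fgf10 and Fgf18, the receptors Fgfr2 and Fgfr3 and the response genes Dusp6 and Etv5 in each compartment, with 1 point per library (blue anterior, red posterior), a bar at the mean and whiskers of 1 SD clipped at 0. In posterior nasal the receptors were highest (63.6 RPKM of Fgfr2 and 12.59 RPKM of Fgfr3 on average) and Dusp6 was lowest (6.19 RPKM).

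In the anterior palate, Fgf18 rose from medial to lateral, from 16.9, 16.1 and 11.7 to 34.5, 32.8 and 29.1 RPKM (log2 difference 1.12, SE 0.17, adjusted p = 0.0170). Fgfr2 fell by 0.61 on the log2 scale (SE 0.12, adjusted p = 0.0427), from 30.2, 33.2 and 32.3 to 22.8, 20.5 and 19.4 RPKM. They were the only genes called of 4 ligands and 3 receptors tested there, where 2.51% of all genes were called. With run as a covariate limma called 0 of 10427 genes, and Fgf18 was at 1.80 and Fgfr2 at -1.05 (both adjusted p = 1.00). The Fgf18 call was also lost without anterior medial 2 or any anterior lateral library (0.0507 to 0.0843), and the Fgfr2 call without any 1 of the 6 libraries (0.0705 to 0.201). Over all 8 compartments Fgf10 was the ligand called (F test, adjusted p = 1.8e-04), from 0.847 ± 0.330 RPKM (SD, n = 3) in posterior medial to 9.59 ± 4.82 RPKM (SD, n = 3) in anterior oral. Of the 22 FGF genes looked up, 7 reached the minimum over all libraries and 1 was called in the F test, and of the 5 receptor genes 4 reached it and 1, Fgfr2, was called (adjusted p = 0.0242, and 0.0941 to 0.148 without posterior nasal 1, 2 or 3). With run as a covariate the adjusted p was 0.0661 for Fgf10 and 0.0619 for Fgfr2. Fgfr1 was the most abundant receptor, with 70.1 ± 10.5 RPKM (SD, n = 13) in anterior and 62.0 ± 11.9 RPKM (SD, n = 12) in posterior libraries (log2 difference -0.18, SE 0.10, adjusted p = 0.431).

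Of the cascade between receptor and nucleus, none of 21 listed genes was called by limma in any of the 8 comparisons. In each, 19 or 20 of them were tested, with 0 or 1 at an unadjusted P under 0.05. The list held adaptor, RAS, RAF, MEK and ERK genes and regulators of the cascade, among them the RAS inhibitors Nf1 and Rasa1. The most abundant were Mapk3, which encodes ERK1, and Nras. Mapk3 had 59.6 ± 25.4 RPKM (SD, n = 3) in posterior oral and 47.8 ± 3.88 RPKM (SD, n = 3) in posterior nasal (log2 difference 0.22, SE 0.33), and Nras 45.3 ± 4.97 RPKM (SD, n = 3) and 42.4 ± 7.38 RPKM (SD, n = 3) (0.10, SE 0.22).

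Among 9 further feedback and response genes, Il17rd, which encodes the receptor-level inhibitor Sef, was called in the F test (adjusted p = 0.0457), but in only 4 of 25 refits with 1 library left out, those without anterior oral 1 or posterior medial 1, 2 or 3 (0.0548 to 0.134 in the others). It averaged 8.98 ± 2.37 RPKM (SD, n = 13) in anterior and 3.98 ± 1.53 RPKM (SD, n = 12) in posterior libraries, the same direction as Spry2, but did not reach the minimum of the anterior-posterior test. Flrt3, a membrane protein that promotes FGF signalling, went the other way, from 28.4 ± 9.59 RPKM (SD, n = 13) to 38.3 ± 5.94 RPKM (SD, n = 12) (log2 difference 0.47, SE 0.13, adjusted p = 0.0489). That call was lost in 20 of 25 refits with 1 library left out (0.0548 to 0.0903), all but those without anterior nasal 1, 3 or 4, posterior medial 2 or posterior oral 2, and with run as a covariate (0.907). Dusp7, a phosphatase of the same family as Dusp6, had 63.6 ± 27.8 RPKM (SD, n = 3) in posterior oral and 56.5 ± 4.44 RPKM (SD, n = 3) in posterior nasal (0.08, SE 0.31). None of the 13 immediate-early genes, of which 4 to 7 were tested, was called by limma in any comparison, and 0 to 3 had an unadjusted P under 0.05. Myc, a growth regulator, and Dusp1, a nuclear phosphatase, were the most abundant of them, and in posterior oral minus nasal their log2 differences were -0.72 (SE 0.28, adjusted p = 0.496) and 0.86 (SE 0.38, adjusted p = 0.656).

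Correlation between members was uneven across libraries, and no median over other pairs of genes was worked out for comparison. Over 36 pairs of members the median Pearson's r of log2 values across the 25 libraries was 0.27, and 5 pairs exceeded 0.7. Those 5 were Etv4 with Etv5 (0.79), Spry4 with Etv4 (0.78), Spred2 with Etv4 (0.77), Spred2 with Etv5 (0.76) and Spry4 with Etv5 (0.73). All were among Etv4, Etv5, Spry4 and Spred2. The coefficients of Etv4 rest on values near the limit of detection (mean 0.896 RPKM), where few reads set the log2 value. Dusp6 went most closely with Spry1 (0.68) and Spry2 with Spry4 (0.45), while Spry1 and Spry2 had an r of 0.00. Without posterior medial 2 and anterior oral 1 (23 libraries) the median was 0.42 and again 5 pairs exceeded 0.7, with Spry4 and Spred2 (0.81, from 0.52) among them in place of Spred2 and Etv5 (0.66). After each compartment's mean was subtracted, Spry1 with Dusp6 (0.77, and 0.75 without those libraries) and Spred2 with the barely detected Etv4 (0.80 and 0.85) stayed high. Etv4 with Etv5 (0.75 and 0.40), Spred2 with Etv5 (0.79 and 0.40) and Spry4 with Etv5 (0.68 and 0.54) rested in part on those libraries. The negative within-compartment coefficients of Etv1 with Etv5 (-0.40) and Spred2 (-0.64) turned to 0.19 and 0.14 without them. The points share libraries, runs and depth. Posterior medial 1 and posterior lateral 1, whose headings name ERK2_WT, had both the lowest Spry1 and the lowest Dusp6 of their compartments.

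**Figure D5:**
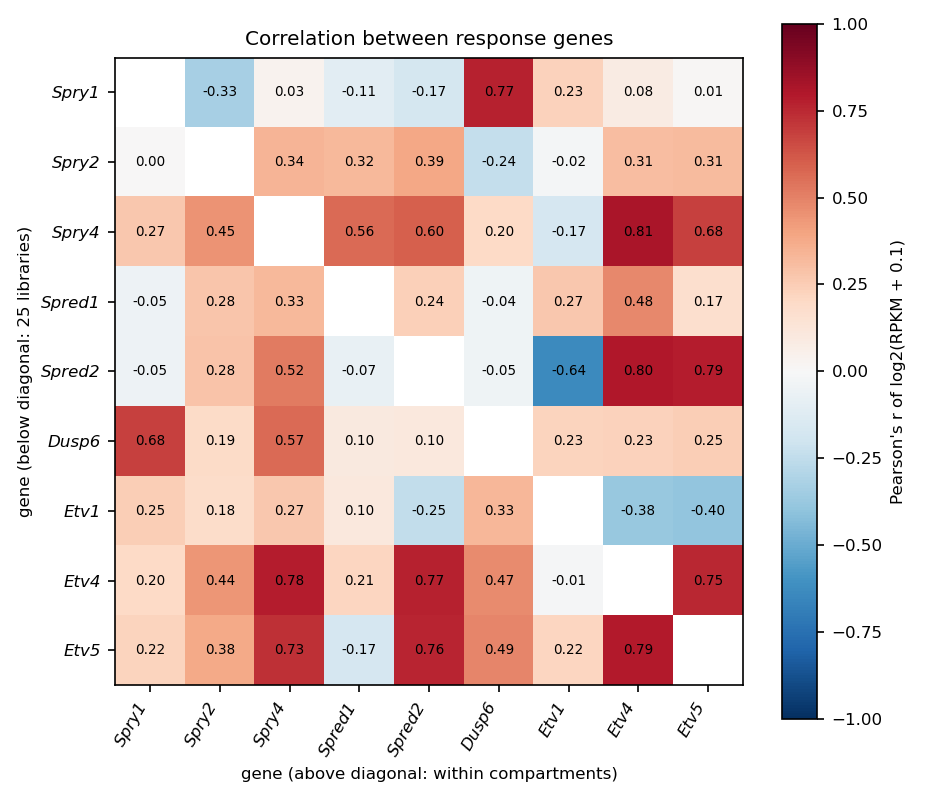
Pearson's r between the response genes on the log2(RPKM + 0.1) scale, below the diagonal over all 25 libraries and above it after subtraction of each compartment's mean. Etv4, Etv5, Spry4 and Spred2 had r of 0.52 to 0.79 with each other over the 25 libraries.

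Among 11913 genes with at least 5 RPKM in 3 libraries, those closest to each member over the 25 libraries were as follows. Spry2 was closest to Ednra, the endothelin receptor of neural crest cells (r = 0.88), then Gap43 (0.81) and Trim25 (0.81). Dusp6 was closest to Esam, an endothelial adhesion molecule (0.84), then Clcf1 (0.78) and Kcnd3 (0.77). Spred2 reached the highest values, with Dtx1 (0.96), Clstn1 (0.95) and Synrg (0.95), and had its lowest levels in posterior medial 2 (0.569 RPKM) and anterior oral 1 (3.72 RPKM), without which these coefficients were 0.83, 0.59 and 0.69. No other coefficient of this kind moved by over 0.1 without those libraries. Etv5 lay nearest to Slc16a9 (0.86), Klk8 (0.86) and Abca3 (0.85), Etv1 to Pdpn (0.82), Fam108b (0.80) and Cntn3 (0.77), and Spred1 to Emilin2 (0.85), Grem1 (0.84) and Rftn2 (0.80). The nearest genes of Spry4 were Lrrc32 (0.80), Adam19 (0.78) and Arrb1 (0.77), and those of Spry1 were 4930471M23Rik (0.72), Gltpd1 (0.72) and Cadm3 (0.71). These are the highest of many coefficients and carry no test.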

How the data were processed

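Laser captured palate RNA was amplified with the NuGEN Ovation system, tagmented with Nextera and sequenced as single-end reads of 50 bases. The authors deposited RPKM values per gene made in GeneSpring, after removing duplicate reads and reads with more than 1 alignment. Per the labels, TopHat and build mm9 were used, with no version given. Groups came from the sample labels, and sequencing runs from the headings of the RPKM columns. Depth was inferred from the steps between low RPKM values, and reads were not recovered per gene.

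Differences were tested with limma 3.58.1 (R 4.3.3, lmFit and eBayes) on log2(RPKM + 0.1), which understates changes of low genes, with Benjamini-Hochberg adjustment over all genes tested and a call at an adjusted p under 0.05. Genes needed 5 RPKM in 3 of the compared libraries, or 10 RPKM in 6 for posterior minus anterior. A looser rule was an unadjusted P under 0.05 with a fold change over 2. The fits were checked on simulated data, and figures were drawn with matplotlib 3.10.9. Comparisons share libraries, so they are not independent. The 9 members are named in every comparison, listed pathway genes where called or, where none was, the 2 of highest mean RPKM, and for each member the 3 genes of highest r. Fgfr1 and Dusp7 were named after their values were seen. Members and lists were chosen with earlier results of these data known. Promoters came from RefSeq, GRCm38.p6. In anterior oral and nasal libraries, same-numbered replicates deviated together (r of 0.116 to 0.242), which met the criterion of r over 0.1 for pairing, although sequencing runs join oral 2 with nasal 3 and oral 3 with nasal 4 instead. Alternatives were other pseudocounts, scalings and filters, a variance trend, a replicate block, run as a covariate and omission of each library.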

Additional observations from a re-analysis of the deposited data

How the results depend on the processing

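Over the alternatives, 22 differences of members or named pathway genes changed direction in at least 1 setting (55 values), and 0 of those values had an adjusted p under 0.05. Spry2 stayed called for posterior minus anterior in all 10 other settings (log2 difference -1.58 to -0.98, adjusted p 0.00263 to 0.0110) and in all 25 refits with 1 library left out (adjusted p 5.5e-04 to 0.00800). In the test over 8 compartments, the number of members called was 1, and it was 0 with a pseudocount of 0.01, without the expression minimum and with run as a covariate, 2 with median centring or quantile normalization, 0 to 2 with 1 library left out, and 3 without posterior medial 2 and anterior oral 1, an omission chosen after seeing the data. For posterior oral minus nasal the count fell from 1 to 0 with a pseudocount of 0.01, without the minimum, with a variance trend, with run as a covariate in either fit, and in each refit with 1 library left out (0 to 0), where Dusp6 had log2 differences of 1.28 to 1.72. For anterior lateral minus medial it was 1 with a variance trend (Etv5, adjusted p = 0.0418) and 0 to 1 with 1 library left out. With a replicate block the counts were 0 over 8 compartments (Dusp6, adjusted p = 0.0519) and 0 for posterior oral minus nasal (Dusp6, adjusted p = 0.0725). The block changed no other call of a member, the anterior oral and nasal pairing included. In posterior oral and nasal the same-numbered libraries had r of 0.232, -0.037 and 0.305, and the first and second of these pairs also share a sequencing run. Pairing by run, as a covariate within the comparison, called 0 members in either oral and nasal comparison.

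The reversed log2 differences were as follows. With run as a covariate over all libraries, anterior lateral minus medial gave 1.08 for Spry1 and 1.60 for Spry2, and posterior lateral minus medial 0.63 for Spry1, 0.97 for Spry2 and 0.48 for Dusp6. In that fit posterior minus anterior was -0.12 for Spred1, the medial-lateral interaction 0.10 for Spred1 and the oral-nasal interaction 0.065 for Spry2. In both run fits, oral minus nasal was -0.030 for Etv1 in the anterior, and -0.24 for Spry2 and -0.049 for Dusp7 in the posterior. Median centring gave 0.024 for Spry1 in anterior lateral minus medial and -0.032 for Spred1 in posterior minus anterior. Quantile normalization gave -0.049 for Spred1 in posterior minus anterior, 0.031 for Etv5 in anterior oral minus nasal and 0.47 for Spred2 in the medial-lateral interaction. A pseudocount of 1 gave 0.0050 for Etv5 in anterior oral minus nasal, and omission of posterior medial 2 and anterior oral 1 together -0.052 for Spred1 in posterior minus anterior.

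With 1 library left out, values crossed 0 as follows. Anterior lateral minus medial ran from -0.23 to 0.20 for Spry1 and -0.50 to 0.13 for Spry2, and posterior lateral minus medial from -0.37 to 1.98 for Spred2 and -0.35 to 0.22 for Dusp6. Anterior oral minus nasal ran from -0.21 to 1.15 for Spry4, -0.31 to 0.075 for Spred1, -0.86 to 0.37 for Spred2, -0.15 to 0.41 for Etv1 and -0.41 to 0.53 for Etv5. Posterior oral minus nasal ran from -0.096 to 0.65 for Spry2, -0.074 to 0.59 for Mapk3, -0.049 to 0.19 for Nras and -0.25 to 0.34 for Dusp7, and posterior minus anterior from -0.019 to 0.051 for Spred1. The medial-lateral interaction ran from -0.039 to 0.96 for Spry2, -0.15 to 0.12 for Spred1, -1.35 to 0.99 for Spred2, -0.59 to 0.84 for Etv1 and -0.15 to 0.82 for Etv5.

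Without the expression minimum, the calls of Fgf10, Fgf18, Fgfr2 and Fgfr3 in posterior oral minus nasal were lost (adjusted p 0.102 to 0.162), as were those of Fgf18 (0.0852) and Fgfr2 (0.133) in anterior lateral minus medial. With the block, Fgfr2 was lost in both comparisons (0.0639 and 0.143) and Il17rd over 8 compartments (0.0920), where Il17rd had 0.345 with run as a covariate. Fgfr2 (0.0518) and Il17rd (0.0739) over 8 compartments and Flrt3 in posterior minus anterior (0.0912) were also lost without the minimum. Median centring and quantile normalization ended the calls of Flrt3 (0.119 and 0.0882) and of Fgfr2 in anterior lateral minus medial (0.0503 and 0.0541), a variance trend those of Fgf10 in posterior oral minus nasal (0.0626) and Il17rd (0.0524), and a pseudocount of 0.01 that of Il17rd (0.0600). With all 25 libraries in one fit, Fgf18 and Fgfr2 in anterior lateral minus medial had adjusted p-values of 1.00, and Fgf18 (0.966) and Fgfr3 (0.338) were lost in posterior oral minus nasal. The cause of these changes was not tested. Etv4 stayed under 5 RPKM in every library, too low for any test with a minimum.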
